A study of Saccharomyces cerevisiae with 16 samples.

Results

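The comparison described here is that of the mutant strain (SCE088) with the reference strain (SCE090) of Saccharomyces cerevisiae, both grown to steady state in chemostats in which ethanol was the limiting nutrient and ammonium sulfate the nitrogen source. It takes the 2 arrays labelled as mutant on ethanol limitation minus the 2 labelled as reference on ethanol limitation, so 4 of the 16 arrays, and covers all 5716 probe sets. The other 12 arrays hold the same strains under glucose limitation and under ammonium limitation with ethanol or with glucose as the carbon source, again with 2 arrays a group. The labels do not name the mutated gene, a genotype or a culture for each array, so the level of the mutated gene could not be read as a check of the labels, and since nothing says that the arrays come from separate cultures, the p-values cover the spread from array to array, which may be technical, and no more.

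Yeast limited by ethanol must make all of its sugar phosphates and lipids from 2-carbon units: ethanol is oxidized to acetate, activated to acetyl-CoA, and fed into the glyoxylate cycle, gluconeogenesis and respiration. Acetyl-CoA is also the substrate of acetyl-CoA carboxylase, encoded by ACC1, which makes the malonyl-CoA used to build fatty acids. Fatty acids are broken down again only in the peroxisome, by beta-oxidation. Cells held at slow growth by carbon also express the general stress genes and store glycogen and trehalose, while genes for building ribosomes are kept low.

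Values are log2 intensities per probe set, normalized across arrays by the authors, and a difference is always mutant minus reference on that scale. The median log2 intensity of the 16 arrays lay between 11.91 and 12.01, and the 2 arrays of a group correlated at 0.984 to 0.997 across probe sets. For the ethanol-limited groups the median absolute difference between the 2 arrays was 0.078 in the mutant and 0.086 in the reference. The strain difference had a median of 0.016 over all probe sets and a median size of 0.137. In a limma fit of all 16 arrays, 1417 probe sets (24.8%) passed a Benjamini-Hochberg adjusted p of 0.05, of which 699 (12.2%) were higher and 718 (12.6%) lower in the mutant. That split turned to 621 and 843 after quantile normalization and to 611 and 847 after centring each array on its median. The 2 mutant arrays and the 2 reference arrays did not overlap for 3663 probe sets (64.1%), so a lack of overlap alone is common here. Most differences were small: 98 probe sets (1.71%) differed by at least 1, and 46 higher and 8 lower ones of these passed the test. Leaving out the second mutant array brought the number of calls to 576, and leaving out the first reference array brought it to 624. With the spread estimated from the 4 ethanol-limited arrays alone, which leaves 2 residual degrees of freedom, 165 probe sets passed.

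**Figure D1:**
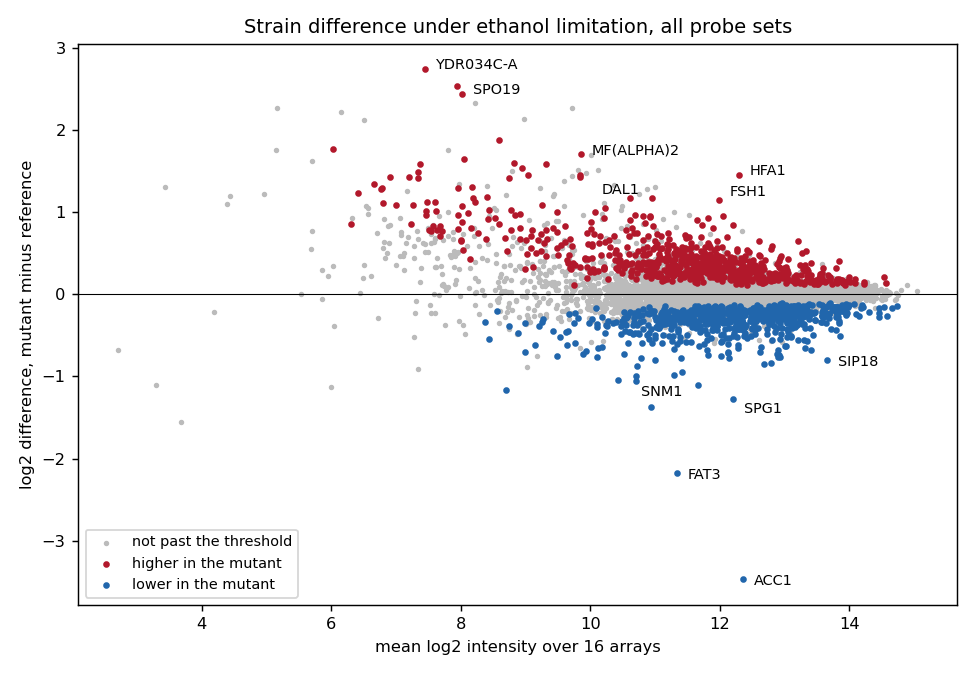
Difference between the strains under ethanol limitation for each of the 5716 probe sets. The x axis is the mean log2 intensity over the 16 arrays and the y axis the log2 difference, mutant minus reference, with the 699 higher and 718 lower probe sets past an adjusted p of 0.05 in colour. ACC1 and FAT3 stand below all other probe sets, and 44 of the 46 probe sets called higher by at least 1 have a mean below the median of 11.95.

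The largest difference of all was in ACC1, the acetyl-CoA carboxylase of the cytosol and first step of fatty acid synthesis. ACC1 measured 10.46 and 10.52 in the mutant arrays, against 13.97 and 13.95 in the reference arrays. This was an 11.1-fold lower intensity in the mutant (log2 difference -3.47, SE 0.038, adjusted p = 3.23e-12 in limma). Its paralog HFA1, which encodes the acetyl-CoA carboxylase of the mitochondrion, went the other way. HFA1 measured 12.93 and 12.95 in the mutant, against 11.41 and 11.58 in the reference, 2.73-fold higher in the mutant (log2 difference 1.45, SE 0.076, adjusted p = 3.01e-06). The 2 genes share sequence, so their probe sets could share some signal, and what part this has in either value was not tested. The genes that flank ACC1 on chromosome XIV in the reference annotation, SMM1 and TIM23, differed by 0.33 (adjusted p = 0.154) and 0.16 (adjusted p = 0.115).

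Downstream of ACC1 the differences were small. FAS1, the beta subunit of fatty acid synthase, measured 14.14 and 14.12 in the mutant and 14.25 and 14.26 in the reference (difference -0.13, adjusted p = 0.021), and FAS2, the alpha subunit, did not pass the test (-0.17, adjusted p = 0.0537). OLE1, the only fatty acid desaturase, differed by -0.021, with overlapping arrays (14.02 and 14.19 in the mutant, 14.10 and 14.15 in the reference). Of the elongases, ELO1, ELO2 and ELO3 had differences of 0.08, 0.04 and 0.22, none past the test. BPL1, the biotin ligase that attaches the cofactor to acetyl-CoA carboxylase, was higher at 11.69 and 11.69 in the mutant, against 11.45 and 11.47 in the reference (difference 0.23, adjusted p = 0.0136).

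Several genes for the uptake and activation of preformed fatty acids fell. FAT3, a gene needed for uptake of fatty acids, had the next largest fall after ACC1 among named genes. It measured 10.50 and 10.66 in the mutant, against 12.83 and 12.69 in the reference, 4.53-fold lower (log2 difference -2.18, SE 0.069, adjusted p = 7.11e-08). FAA1, the main long-chain acyl-CoA synthetase, measured 12.76 and 12.77 in the mutant and 13.33 and 13.34 in the reference (difference -0.57, adjusted p = 9.46e-06). FAA4, a second enzyme of this kind, measured 13.35 and 13.31 in the mutant and 13.71 and 13.62 in the reference (difference -0.33, adjusted p = 0.00299), and ACB1, which carries acyl-CoA, differed by -0.24 and passed too. Both arrays of the mutant lay below both of the reference for each of these 3 genes, as was the case for all 718 probe sets called lower. Over the 22 measured genes of fatty acid synthesis and activation, 2 rose (HFA1 and BPL1) and 9 fell, with a median difference of -0.13. Without the second mutant array or without the first reference array, 5 of them fell in each case.

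**Figure D2:**
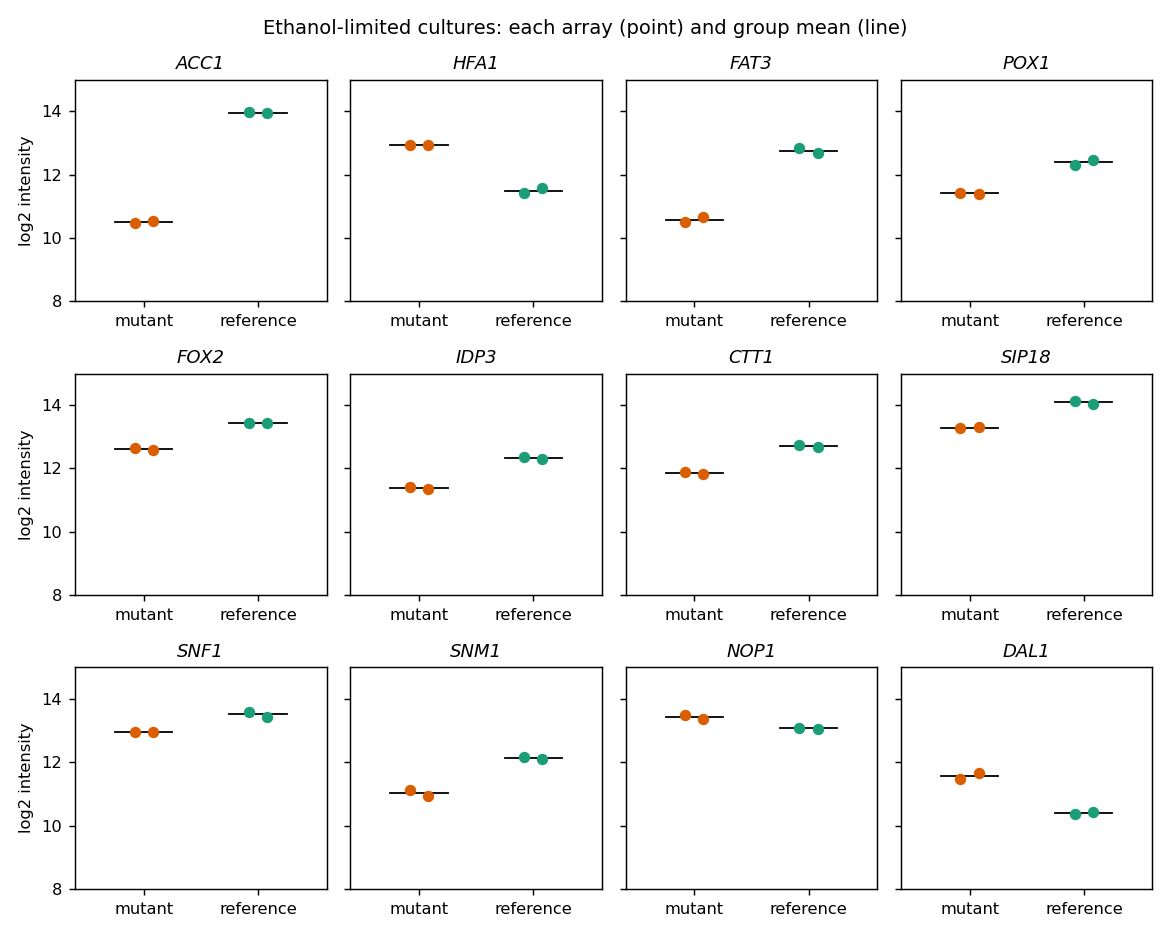
Log2 intensity (y axis, drawn from 8 to 15) of 12 genes in the 2 mutant arrays and the 2 reference arrays of ethanol-limited cultures. Points are single arrays and lines are group means. The groups do not overlap for any of the 12 genes shown. The same holds for all 699 higher and 718 lower probe sets past the test, and for 64.1% of all probe sets. ACC1 has the widest gap, with mutant arrays at 10.46 and 10.52 and reference arrays at 13.97 and 13.95.

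The peroxisomal pathway that degrades fatty acids was lower in large part. Of 24 measured genes of beta-oxidation and the carnitine shuttle, 14 fell and 0 rose in limma (1 was higher at an unadjusted p under 0.05), with a median of -0.31. Every enzyme of the core cycle had a lower mean in the mutant. POX1, the acyl-CoA oxidase of the first step, measured 11.43 and 11.38 in the mutant and 12.32 and 12.46 in the reference, 1.98-fold lower (log2 difference -0.98, SE 0.150, adjusted p = 0.00161). FOX2, the bifunctional enzyme of the middle steps, measured 12.64 and 12.59 in the mutant and 13.43 and 13.45 in the reference (difference -0.83, adjusted p = 5.45e-05). POT1, the thiolase of the last step, had group means of 12.93 in the mutant and 13.37 in the reference, and its difference of -0.43 did not pass (adjusted p = 0.193), with reference arrays at 13.64 and 13.10.

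The auxiliary enzymes and transporters of the same organelle followed. IDP3, the peroxisomal isocitrate dehydrogenase that supplies NADPH for unsaturated fatty acids, measured 11.42 and 11.34 in the mutant and 12.36 and 12.30 in the reference (difference -0.95, adjusted p = 1.14e-06). CTA1, the peroxisomal catalase, measured 12.61 and 12.62 in the mutant and 13.38 and 13.34 in the reference (difference -0.74, adjusted p = 4.95e-05). ECI1, an enoyl-CoA isomerase, and FAA2, the peroxisomal acyl-CoA synthetase, each had 1.71-fold lower intensity in the mutant. Both subunits of the peroxisomal ABC transporter of long-chain acyl-CoA fell, PXA1 by 0.72 and PXA2 by 0.58. The carnitine acetyltransferases CAT2, YAT1 and YAT2, the carrier CRC1 and the regulators OAF1, PIP2 and ADR1 did not pass the test, with differences between -0.17 and 0.11. Of 23 peroxin genes, which build the organelle, 5 fell and 1 rose, with a median of -0.10. Over all probe sets 12.6% were lower and 12.2% higher. PEX28, a peroxin of the membrane, had the largest fall of these and measured 11.48 and 11.35 in the mutant, against 11.91 and 11.84 in the reference.

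Of the genes that carry ethanol into central metabolism, some were lower in the mutant and others did not pass the test. ADH2, the alcohol dehydrogenase that oxidizes ethanol, measured 14.69 and 14.75 in the mutant and 14.73 and 14.83 in the reference. ICL1, isocitrate lyase of the glyoxylate cycle, measured 14.58 and 14.61 in the mutant and 14.64 and 14.61 in the reference. PCK1, the PEP carboxykinase of gluconeogenesis, measured 14.20 and 14.23 in the mutant and 14.11 and 14.22 in the reference. None of these 3 passed the test, the arrays overlapped, and their differences had SEs of 0.074, 0.035 and 0.082. In the list of gluconeogenesis and the glyoxylate cycle 1 of 17 genes rose and 1 fell, with a median of 0.041, and the one that rose, DAL7, is a malate synthase of allantoin degradation. ALD4, the mitochondrial acetaldehyde dehydrogenase, was lower (14.28 and 14.23 in the mutant, 14.50 and 14.54 in the reference, adjusted p = 0.000849), as were ALD2, ALD3, ADH5, PDC6 and ACS2 among the 21 genes of ethanol and acetate use. The only one of them to rise was ACH1. The number that fell was 3 without the second mutant array and 4 without either reference array, against 6 with all arrays.

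The share of respiratory genes that passed the test was near the 24.8% over all probe sets. Of 42 genes of the respiratory chain and ATP synthase, 8 rose and 2 fell, with a median of 0.068, and 3 rose when each array was centred on its median and 2 with the replicate number as a block. The number that rose was 3 without the first mutant array, 2 without the second, 2 without the first reference array and 5 without the second. HAP4, the activating subunit of the factor that drives respiratory genes, measured 13.11 and 13.27 in the mutant and 12.82 and 12.91 in the reference (difference 0.32, adjusted p = 0.00421). The 2 forms of cytochrome c moved in opposite directions. CYC1, the main form, measured 13.68 and 13.70 in the mutant and 13.41 and 13.45 in the reference (difference 0.25, adjusted p = 0.0012). CYC7, the form known from low oxygen and stress, measured 9.99 and 10.05 in the mutant and 10.73 and 10.64 in the reference (difference -0.67, adjusted p = 6.65e-05). In the TCA cycle list 5 of 25 genes rose and 2 fell, beside 12.2% higher and 12.6% lower over all probe sets. Those that rose include both subunits of isocitrate dehydrogenase, IDH1 by 0.19 and IDH2 by 0.32. The rises in that list numbered 2 without the first mutant array, 3 without the second and 2 without either reference array.

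A pair of isozymes split in the same way in the pentose phosphate pathway, where 4 of 14 genes rose (1 without either mutant array or without the first reference array) and 5 fell. GND1, the main 6-phosphogluconate dehydrogenase, measured 13.01 and 12.99 in the mutant and 12.47 and 12.48 in the reference (difference 0.52, adjusted p = 1.27e-05). Its minor isozyme GND2 measured 12.59 and 12.49 in the mutant and 13.32 and 13.30 in the reference (difference -0.77, adjusted p = 1.27e-05). Transketolase behaved alike: TKL1 was higher in the mutant by 0.16 (adjusted p = 0.0456) and the minor isozyme TKL2 was lower, with a difference of -0.77 (adjusted p = 1.67e-05). SOL3 rose by 0.24 and SOL4 and NQM1 fell by 0.48 and 0.55. Such isozyme pairs share sequence, and cross-hybridization between them was not tested.

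Stress genes were lower almost throughout. In the general stress response list 34 of 42 genes fell and 0 rose in limma (also 0 at an unadjusted p under 0.05), with a median of -0.28 and 41 members below 0. SPG1, a stationary-phase gene, measured 12.03 and 11.96 in the mutant and 13.27 and 13.26 in the reference, 2.41-fold lower (log2 difference -1.27, adjusted p = 2.93e-06). CTT1, the cytosolic catalase, measured 11.88 and 11.84 in the mutant and 12.73 and 12.69 in the reference (difference -0.85, adjusted p = 3.01e-06). SIP18, a hydrophilin induced by drying and salt, measured 13.27 and 13.32 in the mutant and 14.15 and 14.04 in the reference (difference -0.80, adjusted p = 1.85e-05). HSP12, a small membrane-associated heat shock protein, had a smaller difference of -0.26 (adjusted p = 0.000938). The genes of the factors that drive this response, MSN2 and MSN4, differed by -0.06 and -0.11 and did not pass. Without 1 of the 4 arrays, between 23 and 31 members fell.

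A smaller shift in the same direction was seen in storage carbohydrate genes. Of 21 genes, 11 were lower and 0 higher in limma (0 at an unadjusted p under 0.05), with a median of -0.22. GIP2, a putative regulatory subunit of the phosphatase Glc7 that acts on glycogen synthase, measured 9.61 and 9.58 in the mutant and 10.51 and 10.66 in the reference, 1.99-fold lower (adjusted p = 6.71e-05). GPH1, glycogen phosphorylase, measured 12.08 and 11.94 in the mutant and 12.67 and 12.82 in the reference (difference -0.74, adjusted p = 0.000118). Glycogen synthase, which runs the opposite reaction, fell in both forms, GSY1 by 0.49 and GSY2 by 0.47. The trehalose synthesis genes TPS1, TPS2 and TSL1 fell by 0.23, 0.29 and 0.37.

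The proteasome genes shifted together by a small amount. All 36 members had differences below 0, from -0.30 to -0.044, with a median of -0.17. In limma 18 of them passed and 0 rose (0 at an unadjusted p under 0.05), but 5 passed without the second mutant array and 6 without the first reference array. RPN4, the transcription factor of these genes, measured 13.10 and 13.03 in the mutant and 13.36 and 13.38 in the reference (difference -0.30, adjusted p = 0.000403). Of 30 chaperone genes 10 fell and 0 rose (3 rose at an unadjusted p under 0.05 in limma), led by the stress-induced Hsp70 genes SSA3 (-0.65) and SSA4 (-0.54) and by ERO1 (-0.53), which forms disulfides in the endoplasmic reticulum. SSA1, SSA2, SSB1 and SSB2, the Hsp70 genes of growing cells, had differences between -0.09 and 0.11 and did not pass. Of 36 genes of autophagy and vacuolar proteolysis, 10 fell, among them ATG1, the kinase that starts autophagy (11.88 and 11.86 in the mutant, 12.50 and 12.46 in the reference), and 1 rose, the carboxypeptidase gene CPS1. Among 33 antioxidant genes 11 fell and 3 rose, and TSA2, the minor cytosolic peroxiredoxin, fell by 0.72. Without the second mutant array 6 chaperone and 5 autophagy genes fell, and without the first reference array 6 autophagy and 7 antioxidant genes fell.

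The opposite shift was in the genes that make ribosomes. Of 94 ribosome biogenesis genes, 53 rose and 0 fell in limma (0 fell at an unadjusted p under 0.05), with a median of 0.29 and 93 members above 0. NOP56, a core protein of the small nucleolar particles that methylate rRNA, measured 12.31 and 12.40 in the mutant and 11.69 and 11.85 in the reference, a difference of 0.58 (adjusted p = 0.000426). NOP1, the methyltransferase of the same particle, measured 13.49 and 13.37 in the mutant and 13.07 and 13.07 in the reference (difference 0.36, adjusted p = 0.0034). SSF1, a factor of the large subunit, had the largest rise of the list, with 10.27 and 10.65 in the mutant and 9.80 and 9.71 in the reference. Leaving out 1 array gave 39 to 44 rises. Among 32 genes of RNA polymerases I and III and their factors, 14 rose and 1 fell, and the one that fell is MAF1, the repressor of polymerase III (-0.32). RPA190, the largest subunit of polymerase I, measured 13.14 and 13.11 in the mutant and 12.67 and 12.86 in the reference (adjusted p = 0.0352). Only 5 of these 32 rose without the first reference array and 6 without the second mutant array.

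The genes of the structural proteins of both kinds of ribosome were counted apart. Of 71 mitochondrial ribosomal protein genes 18 rose and 0 fell (1 fell at an unadjusted p under 0.05 in limma), with a median of 0.17, and 3 rose without the second mutant array and 4 without the first reference array. MRPL11 had the largest rise, with 11.84 and 12.04 in the mutant and 11.41 and 11.53 in the reference. Of 128 cytosolic ribosomal protein genes 12 rose, a share below the 12.2% over all probe sets, and 2 fell, with a median of 0.064, and 4 rose when each array was centred on its median and 4 with the replicate number as a block. Of these cytosolic genes 7 rose without the first mutant array, 3 without the second and 2 without the first reference array.

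**Figure D3:**
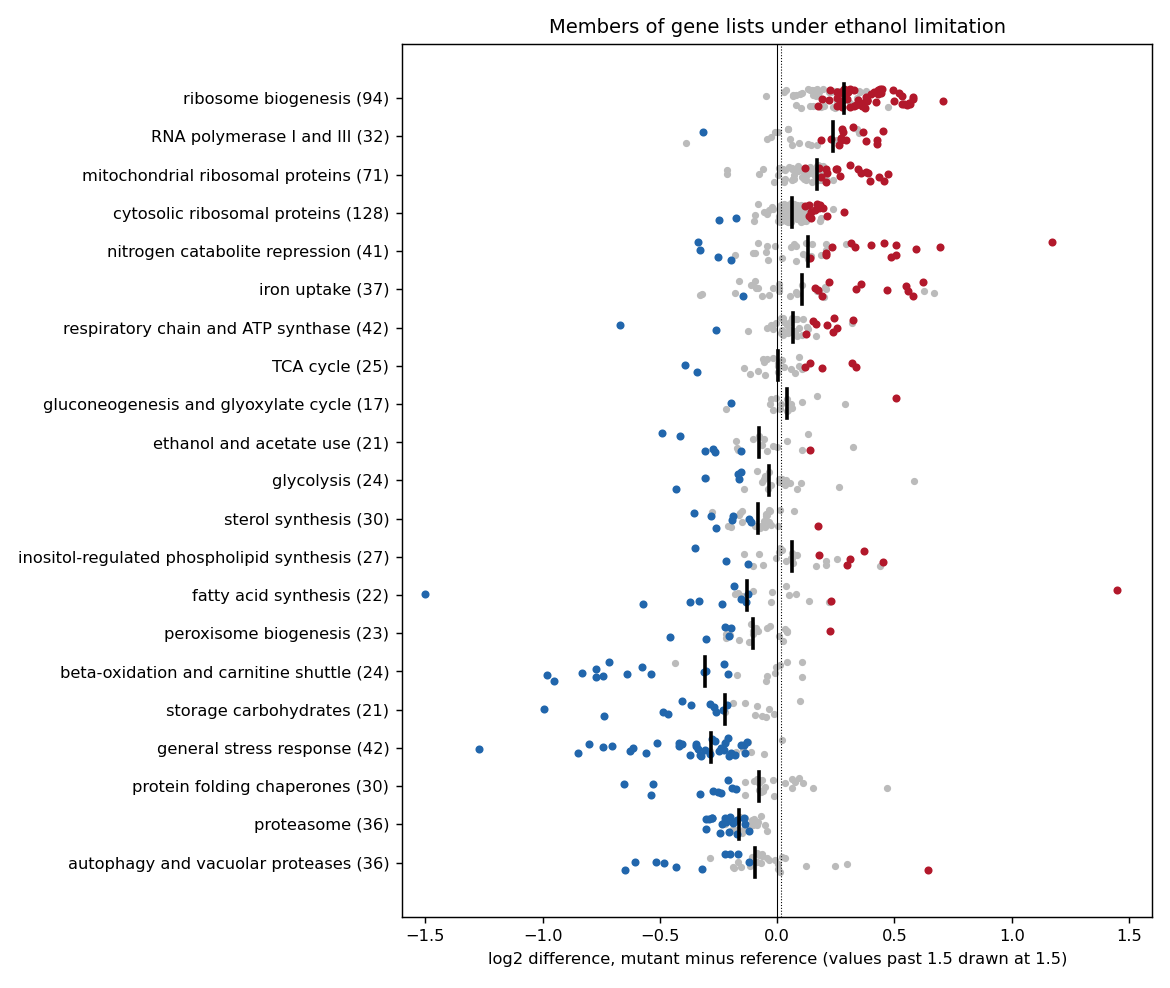
Log2 differences, mutant minus reference, of the members of 21 gene lists under ethanol limitation (x axis, with values past 1.5 drawn at 1.5), with the number of probed members beside each name. Points in red are higher and in blue lower at an adjusted p under 0.05, grey points did not pass, black bars are list medians, and the dotted line is the median of all probe sets, 0.016. Medians run from 0.29 for ribosome biogenesis to -0.31 for beta-oxidation and the carnitine shuttle.

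Genes for the use of poor nitrogen sources were higher in part, although nitrogen was not limiting in these cultures. Of 41 genes under nitrogen catabolite repression 14 rose and 4 fell, with a median of 0.13. DAL1, the allantoinase, measured 11.49 and 11.67 in the mutant and 10.38 and 10.43 in the reference, 2.25-fold higher (log2 difference 1.17, SE 0.096, adjusted p = 4.95e-05). The allantoin permease gene DAL4 measured 12.26 and 12.20 in the mutant and 11.50 and 11.57 in the reference, and DAL80, a GATA repressor of this regulon, measured 12.77 and 12.86 in the mutant and 12.30 and 12.15 in the reference. DAL5, DAL7, DCG1 and DUR3, which serve the same route, rose by 0.46 to 0.51. GDH2, the glutamate dehydrogenase that releases ammonium, and the permease gene AGP1 fell by 0.34 and 0.33. Iron uptake genes were also higher, 11 of 37 against 1 that fell, among them the siderophore transporter gene SIT1 (12.05 and 11.89 in the mutant, 11.38 and 11.32 in the reference) and the ferroxidase gene FET3 (13.10 and 13.10 in the mutant, 12.56 and 12.54 in the reference). Without the second mutant array 4 iron and 9 nitrogen genes rose, and without the first reference array 5 and 9.

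Among membrane lipid genes, 7 of 30 sterol genes fell and 1 rose, with ECM22, an activator of the pathway, at -0.35 and HMG1, an HMG-CoA reductase, at -0.26. Without the second mutant array or the first reference array 3 sterol genes fell in each case. Of 27 genes of phospholipid synthesis that respond to inositol, 5 rose and 3 fell, and without the second mutant array or the first reference array 2 rose and 1 fell in each case. Over all probe sets 12.2% were higher and 12.6% lower. INO1, which makes inositol phosphate and is the best known gene of the inositol group, measured 13.59 and 13.53 in the mutant and 13.90 and 13.92 in the reference (difference -0.35, adjusted p = 0.000849).

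Regulators of carbon and growth signalling were measured too. Of 35 genes of the Snf1 and protein kinase A pathways, 4 rose and 5 fell, both shares near those over all probe sets. Without the second mutant array 1 rose, without the first reference array 2, without the second 1 and with the replicate number as a block 1. SNF1, the kinase of glucose derepression, measured 12.96 and 12.95 in the mutant and 13.59 and 13.44 in the reference (difference -0.56, SE 0.063, adjusted p = 0.000278). Next to it on chromosome IV lies SNM1, a subunit of RNase MRP, with 11.12 and 10.94 in the mutant and 12.16 and 12.11 in the reference, 2.15-fold lower (adjusted p = 1.85e-05). The neighbour on the other side, YDR476C, was 1.44-fold higher in the mutant (12.52 and 12.60, against 11.96 and 12.12 in the reference, adjusted p = 0.000857), and the next genes out, JIP4 and PEX29, differed by 0.10 and -0.092 and did not pass. PDE2, the cAMP phosphodiesterase of high affinity, rose (11.95 and 12.13 in the mutant, 11.52 and 11.42 in the reference, adjusted p = 0.00458), while PDE1 of low affinity fell by 0.41. The 3 G1 cyclin genes CLN1, CLN2 and CLN3 rose by 0.42, 0.35 and 0.57. Of 51 cell cycle genes in all, 8 rose and 6 fell, beside 12.2% higher and 12.6% lower over all probe sets. Their median was 0.016, the same as over all probe sets. URA3, a common selection marker of laboratory strains, measured 13.04 and 12.97 in the mutant and 13.66 and 13.70 in the reference (difference -0.68, adjusted p = 1.29e-05), and HIS3, LEU2, LYS2 and MET17 did not pass. Of 7 a-specific and 4 alpha-specific mating genes, ASG7 and MF(ALPHA)2 rose and BAR1 fell.

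The 15 named genes with the largest rises past the test were mostly dim. They had differences of 1.42 to 2.73, and HFA1 alone among them had a group mean above 12 in the mutant. YDR034C-A, a small open reading frame, came first, with 8.78 and 10.28 in the mutant and 6.78 and 6.81 in the reference (log2 difference 2.73, SE 0.537, adjusted p = 0.00562). SPO19, a sporulation gene, measured 9.87 and 9.86 in the mutant and 7.04 and 7.80 in the reference (adjusted p = 0.0465). The mutant arrays lay apart by more than 1 for YDR034C-A, and the reference arrays were the ones apart for SPO19. YHR050W-A, MF(ALPHA)2, YFL012W, SMA2, HXT13, YAR035C-A, YDR524W-C, BSC4, PSR1, DGR1, YOR011W-A and YAL064W-B make up the rest, with 1.42 to 1.77. Of the 46 probe sets called higher by at least 1, the second mutant array was above the first in 39, by a median of 0.50 over the 46, and their median mean intensity was 8.11, against 11.95 over all probe sets. Of the 8 called lower by at least 1 it was 11.1.

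Genes outside that group rose too. FSH1, a putative serine hydrolase, measured 12.02 and 12.19 in the mutant and 10.88 and 11.03 in the reference, 2.22-fold higher (log2 difference 1.15, adjusted p = 2.51e-05). NRT1, a nicotinamide riboside transporter, measured 10.28 and 10.35 in the mutant and 9.28 and 9.33 in the reference (difference 1.00, adjusted p = 6.65e-05). AAH1, the adenine deaminase, measured 12.56 and 12.69 in the mutant and 11.84 and 11.72 in the reference (difference 0.84, adjusted p = 0.000221). In each of the 3, both mutant arrays were above both reference arrays, as was the case for all 699 probe sets called higher. These 3 genes were named after their values were seen. Among falls outside the groups above were CRF1, a corepressor of ribosomal protein genes (10.61 and 10.76 in the mutant, 11.77 and 11.71 in the reference), and JLP1, a sulfonate dioxygenase (9.06 and 9.24 in the mutant, 10.11 and 10.27 in the reference). YGR174W-A and CIS1 fell by 0.88 and 0.79.

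The strain difference was then set beside that in the other conditions, where 1041 probe sets (18.2%; 9.41% higher and 8.8% lower) were called under glucose limitation, 902 (15.8%; 5.65% higher and 10.1% lower) under nitrogen limitation on ethanol and 1206 (21.1%; 9.99% higher and 11.1% lower) under nitrogen limitation on glucose. Of the 1417 calls under ethanol limitation, 574 were called in no other condition. Calls in the same direction numbered 166 for glucose limitation, 418 for nitrogen limitation on ethanol and 474 for nitrogen limitation on glucose, and calls in the opposite direction numbered 239, 37 and 71. Across probe sets, which are not independent replicates, the strain differences under ethanol limitation correlated at 0.229 with those under glucose limitation, at 0.394 with those under nitrogen limitation on ethanol and at 0.266 with those under nitrogen limitation on glucose. Over the probe sets above the median intensity these were 0.063, 0.554 and 0.44.

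A test of the difference itself found 1215 probe sets (21.3%) whose strain difference under ethanol limitation was unlike that under glucose limitation, 583 (10.2%) more positive and 632 (11.1%) more negative under ethanol. Against nitrogen limitation on ethanol there were 356 (6.23%), 222 (3.88%) more positive and 134 (2.34%) more negative, a split that turned to 147 and 250 after quantile normalization and to 146 and 214 after centring each array on its median. Against nitrogen limitation on glucose there were 627 (11%), 351 (6.14%) more positive and 276 (4.83%) more negative, which turned to 293 and 453 and to 283 and 382 under the same 2 scalings. The 3 tests share the ethanol-limited arrays, so they are not independent of each other.

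**Figure D4:**
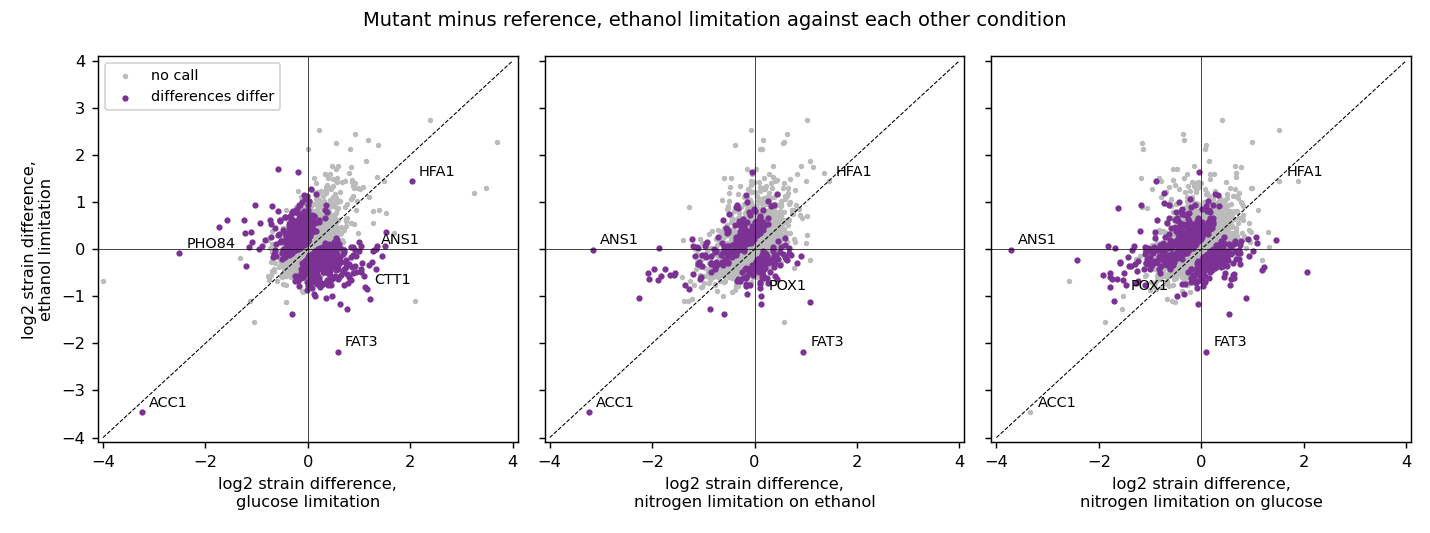
Log2 strain difference (mutant minus reference) under ethanol limitation (y axis) against that under glucose limitation, nitrogen limitation on ethanol and nitrogen limitation on glucose (x axes) for all probe sets, with values past 4 drawn at 4. Purple points are the 1215, 356 and 627 probe sets whose 2 differences differ at an adjusted p under 0.05, and the dashed line marks equal differences. ACC1 lies near that line in all 3 panels and FAT3 far below it.

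ACC1 had nearly the same difference in every condition, -3.47 under ethanol limitation, -3.24 under glucose limitation, -3.24 under nitrogen limitation on ethanol and -3.34 under nitrogen limitation on glucose. HFA1 had 1.45, 2.03, 1.45 and 1.53 in the same order. The small gaps of ACC1 to glucose limitation (-0.22, adjusted p = 0.0146) and to nitrogen limitation on ethanol (-0.23, adjusted p = 0.0327) passed the limma test of the difference. Its gap to nitrogen limitation on glucose did not (-0.13, adjusted p = 0.159). In all, 21 probe sets were called in the same direction in all 4 conditions, 8 higher and 13 lower. Besides ACC1 the lower ones include SNM1, SNF1, URA3, INO1, the invertase gene SUC2, ARG1 and HSP30, and the higher ones include HFA1, CLN3, CPS1 and SRO9, which binds RNA.

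FAT3 fell under ethanol limitation alone. Its difference was -2.18 there, 0.59 under glucose limitation, 0.94 under nitrogen limitation on ethanol and 0.097 under nitrogen limitation on glucose, and the first was unlike each of the other 3 (adjusted p = 2.1e-07, 1.2e-07 and 8.9e-07). In total 97 probe sets (6.85% of the 1417 calls) were called under ethanol limitation and unlike each of the 3 other conditions in the direction of that call, 56 higher and 41 lower. The 41 lower ones, of 5716 probe sets, hold FOX2, IDP3, CTA1, PXA1 and DCI1, 5 genes of beta-oxidation or its auxiliary enzymes and transporters. With them are FAA1, FAA4, GPH1, GSY2, CYC7, HSP12 and HSP31. For FOX2 the differences were -0.83, 0.09, 0.10 and -0.08. POX1 was not among them, with -0.98 under ethanol limitation and -1.53 under nitrogen limitation on glucose (adjusted p of their difference 0.13). The higher ones hold DAL1, DAL80, DUR3, FSH1, NRT1, AAH1, PDE2, IDH2, RAS1 and a number of ribosome biogenesis genes, among them NSR1, UTP5, UTP8, DRS1, RRP8, ENP1 and NOB1. Of the 41 genes under nitrogen catabolite repression, 5 were more positive and 10 more negative under ethanol than under glucose limitation. Against nitrogen limitation on ethanol these counts were 5 and 2, and against nitrogen limitation on glucose 6 and 4.

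**Figure D5:**
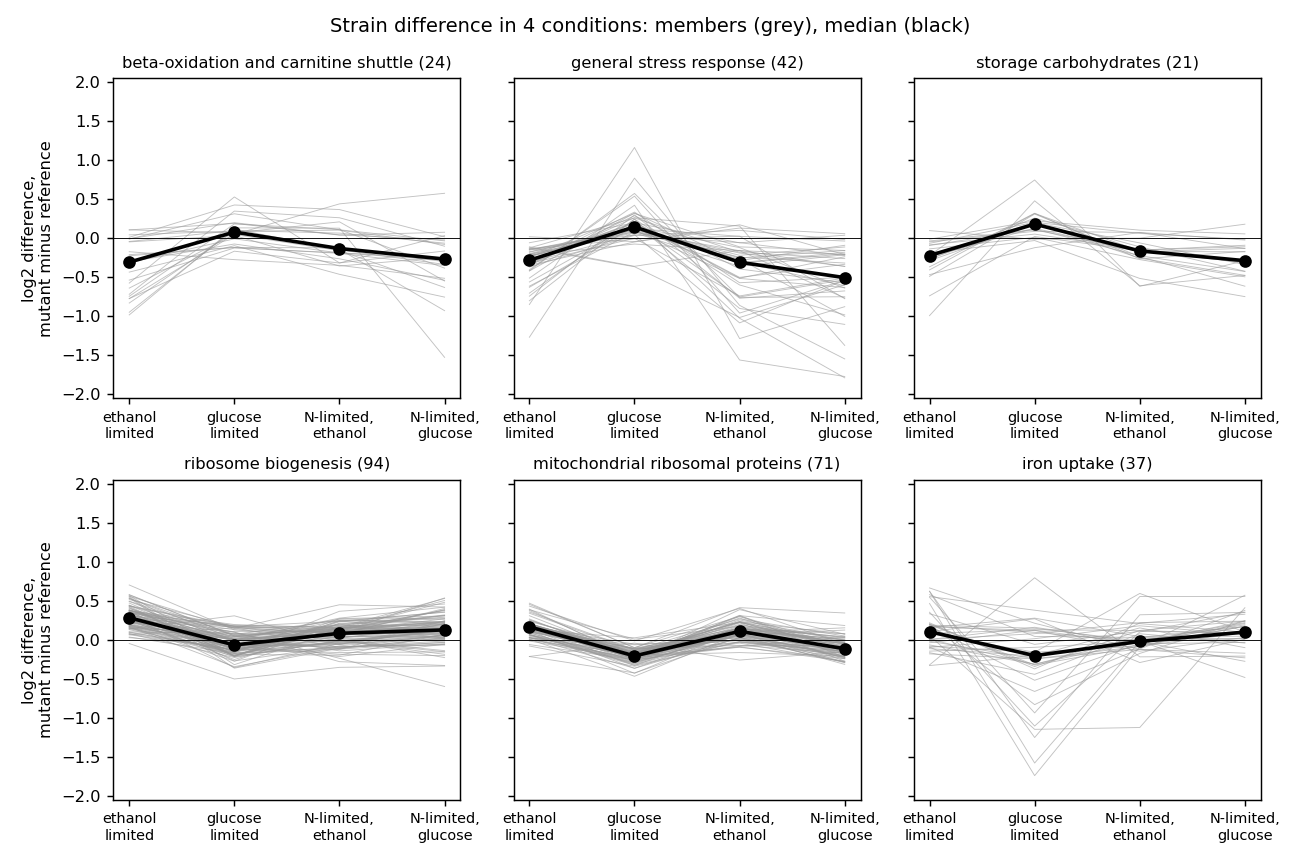
Log2 strain difference (mutant minus reference, y axis, drawn from -2 to 2) in the 4 conditions (x axis) for 6 gene lists. Grey lines are single members and black lines the list medians. The median of ribosome biogenesis is 0.29 under ethanol limitation, above its value in the other 3 conditions, and the medians of the stress and storage lists are negative in all conditions but glucose limitation.

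The gene groups differed in how far ethanol limitation stood apart. For beta-oxidation and the carnitine shuttle the median difference was -0.31 under ethanol limitation, 0.079 under glucose limitation, -0.13 under nitrogen limitation on ethanol and -0.27 under nitrogen limitation on glucose, and 12, 8 and 6 of the 24 members were more negative under ethanol limitation than in those 3 conditions. In the same 3 limma tests 0, 0 and 2 members were more positive (0, 1 and 4 at an unadjusted p under 0.05). For the general stress response the medians were -0.28, 0.15, -0.31 and -0.51. Against glucose limitation 35 of its 42 members were more negative under ethanol and 2 more positive, but against nitrogen limitation on glucose 4 were more negative and 12 more positive. CTT1 had -0.85, 1.16, -1.29 and -0.88. Storage carbohydrate genes had medians of -0.22, 0.18, -0.16 and -0.29.

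Ribosome biogenesis had medians of 0.29, -0.065, 0.085 and 0.13, and 50, 17 and 10 of its 94 members were more positive under ethanol limitation than under glucose limitation, nitrogen limitation on ethanol and nitrogen limitation on glucose, with 0 more negative in each limma test (1, 0 and 1 at an unadjusted p under 0.05). Mitochondrial ribosomal protein genes had medians of 0.17, -0.21, 0.11 and -0.11, and 45 of 71 were more positive under ethanol than under glucose limitation. Against nitrogen limitation on ethanol 0 of them were more positive (5 at an unadjusted p under 0.05 in limma), and against nitrogen limitation on glucose 17 were. Iron uptake genes had medians of 0.11, -0.20, -0.019 and 0.10. SIT1 differed by 0.62 under ethanol limitation and by -1.25 under glucose limitation (difference of the differences 1.88, adjusted p = 2.3e-06). The proteasome list had -0.17, -0.09, -0.06 and -0.021, with 5 of 36 members more negative under ethanol than under glucose limitation, a share near the 11.1% over all probe sets. Against nitrogen limitation on ethanol 0 of 36 were more negative (8 at an unadjusted p under 0.05 in limma), and against nitrogen limitation on glucose 5 were.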

How the data were processed

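The intensities, on a linear scale and 1 per probe set, had been normalized by the authors when deposited, and the submitters' processing notes name GCRMA, without a version. They were converted to log2 with no offset. Of 5716 probe sets, 5498 carry 1 gene symbol and 218 none, and 12 symbols were updated through the RefSeq R64 gene table. The paper given with the series describes a time course, which the labels of these arrays do not, and groups were taken from the labels.

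The means of 8 groups were fitted to 16 arrays with limma 3.58.1 in R 4.3.3 (8 residual and 2.01 prior degrees of freedom), and each contrast was tested two-sided, with p-values adjusted by Benjamini and Hochberg's method over the whole table. The script was tested on simulated data. For arrays, their number limits the precision, and no counting depth applies.

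The comparison, the 44 gene lists and the tests were chosen with earlier results of these data known. 3 genes (RPP1, KGD4 and MRP8) were taken off the ribosomal protein lists after their values were seen, since they encode no ribosomal protein. The named genes are the 15 largest rises and 15 largest falls past the threshold whose arrays do not overlap, the 2 largest changes of each list, and the 4 largest rises and falls of each interaction. Other members were named for their role. A search of promoter sequence was not run, and no sequence is given. The alternatives tried were 2 scalings, an offset, only probe sets above the median mean intensity ("brighter"), a trended spread, the compared groups alone, a replicate block and leaving out each array.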

Additional observations from a re-analysis of the deposited data

Results flagged for a closer look

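Each value here is a difference of differences on the log2 scale, the strain difference (mutant minus reference) under ethanol limitation minus that in another condition, past an adjusted p of 0.05 in limma. It was past the threshold for 1215 probe sets against glucose limitation, 356 against nitrogen limitation on ethanol and 627 against nitrogen limitation on glucose.

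Against glucose limitation the largest positive values were those of PHO84 (2.42), a phosphate transporter with strain differences of -0.088 under ethanol limitation and -2.51 under glucose limitation, MF(ALPHA)2 (2.28), FIT2 (2.21), a cell wall protein that binds siderophores, and FRE5, a reductase gene of the iron group (2.203). The largest negative ones were FAT3 (-2.76), CRF1 (-2.27), SPG1 (-2.04) and CTT1 (-2.01). CRF1, SPG1 and CTT1 were all lower in the ethanol-limited mutant and higher in the glucose-limited one. Other genes named above had 1.84 (YFL012W), -1.92 (CIS1), -1.47 (GIP2), -1.12 (POX1), -1.07 (IDP3), -1.05 (SIP18), -0.85 (YGR174W-A), -0.82 (ECI1) and -0.58 (HFA1).

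Against nitrogen limitation on ethanol the values were 3.16 for ANS1, 1.89 for YMR244W, 1.69 for YFL012W, 1.58 for YDL218W, -3.12 for FAT3, -2.21 for SPO74, -1.13 for HPF1, -1.11 for POX1, -0.94 for FOX2 and -0.23 for ACC1. ANS1 differed by -0.008 between the strains under ethanol limitation, so its value is that of the nitrogen-limited arrays.

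Against nitrogen limitation on glucose they were 3.71 for ANS1, 2.34 for BSC4, 2.19 for YMR206W, 2.12 for HO, the mating type endonuclease, -2.55 for NDJ1, -2.28 for FAT3, -1.92 for JLP1, -1.62 for YCR099C and 0.60 for SNM1. YMR206W differed by -0.238 between the strains under ethanol limitation (adjusted p = 0.0729 in limma) and by -2.425 under nitrogen limitation on glucose. HO measured 12.72 and 12.64 in the ethanol-limited mutant and 11.61 and 11.86 in the ethanol-limited reference. FRE5 measured 7.55 and 8.17 in the ethanol-limited mutant and 7.71 and 6.76 in the reference, and SPO74 measured 5.07 and 5.57 in the mutant and 6.43 and 6.46 in the reference, so both were dim.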

How the results depend on the processing

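The count of 1417 calls was 781 over brighter probe sets (292 higher, 489 lower), 165 with the 4 compared arrays alone, 54 with a difference of at least 1, and 576 to 1231 without 1 array. It was 1464 after quantile normalization (621 higher, 843 lower) and 1458 after median centring (611 higher, 847 lower). The 1215 calls against glucose limitation became 727 over brighter probe sets and 95 with at least 1, and 816 to 988 without 1 array. The 356 against nitrogen limitation on ethanol became 128 with the 8 compared arrays alone and 36 with at least 1, and 145 to 385 without 1 array (158 without the second ethanol-limited mutant array, 182 and 167 without the first and second reference arrays, and 145 and 165 without the second mutant and the first reference array of that nitrogen limitation). The 627 against nitrogen limitation on glucose became 407 over brighter probe sets, 238 with the compared arrays alone and 68 with at least 1, and 332 to 582 without 1 array (374 without the second ethanol-limited mutant array, 401 and 364 without the first and second reference arrays, and 332 and 360 without the first and second mutant arrays of that nitrogen limitation).

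Same-numbered mutant and reference arrays share only a number: their deviations correlated at 0.021 under ethanol limitation, 0.017 under glucose limitation, -0.017 under nitrogen limitation on glucose and -0.231 under nitrogen limitation on ethanol. With the replicate number as a block, the 4 counts were 1027, 883, 158 and 336, and with the crossed pairing under nitrogen limitation on ethanol, added after the data were seen, the third was 198. The deviations of the reference arrays correlated at 0.582 and 0.423 between ethanol limitation and both nitrogen limitations, and at -0.682 with glucose limitation, whose title and description give opposite replicate numbers. A term for these deviations, added after the data were seen, gave 2199, 1878, 832 and 1280 calls. Its sign was reversed for the glucose-limited reference arrays, so it was built to follow the deviations seen in these data. The cause of these changes was not tested, apart from the smaller number of probe sets or arrays in some. None of the 127 values of genes named by the stated rules changed direction in an alternative that held them. Over brighter probe sets 50 of them were held. Genes named outside those rules were not part of that check. Of 127 named values, 1 was no longer past the threshold after median centring, 12 after quantile normalization, 18 with the block, 65 with the compared arrays alone, 17 and 43 without the first and second ethanol-limited mutant arrays, and 41 and 24 without the first and second reference arrays. Of 88 counts of list members, 72 moved by over 1.5 times with the compared arrays alone, 54 without the second mutant array, 53 without the first reference array, 30 over brighter probe sets and 28 with the block. Dim probe sets limit what can be read from the largest rises.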

Other observations

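Among nucleotide genes, 7 of 34 rose and 3 fell, beside 12.2% higher and 12.6% lower over all probe sets. IMD4, an IMP dehydrogenase of GTP synthesis, measured 12.35 and 12.31 in the mutant and 11.43 and 11.63 in the reference (difference 0.80, adjusted p = 0.00474), and its paralog IMD2 measured 9.30 and 9.49 in the mutant and 10.01 and 10.01 in the reference (difference -0.62, adjusted p = 0.00733). URA10, the minor orotate phosphoribosyltransferase, fell by 0.51.

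Of 24 glycolytic genes 5 fell and 0 rose in limma (0 at an unadjusted p under 0.05), with a median of -0.036, and HXK1, the hexokinase of cells without glucose, fell by 0.43. The falls numbered 1 without the second mutant array and 2 without either reference array. In the hexose transport list 7 of 26 genes rose and 1 fell, and 2 rose without the second mutant array, 2 without the first reference array and 1 over brighter probe sets. These included the dim genes HXT13 and GAL2, of which GAL2 had 9.08 and 9.45 in the mutant and 8.17 and 8.50 in the reference. The hexose transporter genes share much sequence, and cross-hybridization between them was not tested.

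In glycerol metabolism 3 of 14 genes rose and 3 fell, beside 12.2% higher and 12.6% lower over all probe sets. With the compared arrays alone 1 rose and 0 fell. GPP2, a glycerol phosphatase, rose by 0.65, while GUT1 and GUT2, which degrade glycerol, fell by 0.19 and 0.28. Of 68 genes of amino acid biosynthesis 10 fell, a share near the 12.6% over all probe sets, and 3 rose, with a median of -0.032. The falls numbered 1 without the second mutant array, 2 without the first reference array and 4 without the second.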
